A study of Gallus gallus with 30 samples.

Results

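Integrin and laminin subunit genes were followed through chicken development in whole embryos. The genes were found by their platform symbol, which had to begin with ITGA, ITGB, LAMA, LAMB or LAMC followed directly by a number or the letter V. This gave 30 genes with 66 probe sets, of 13008 genes that had a chicken probe set with 1 symbol. Of the 30, 27 were subunits (16 integrin and 11 laminin) and 3 (ITGB1BP1, ITGB1BP3 and ITGB3BP) carry an integrin in their name but are no subunits. Each gene was read from 1 probe set, the one with the highest mean log2 signal over all arrays. ITGA5, ITGA10, ITGA2B, ITGB7 and ITGB8 were not analysed here.

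The embryos were wild type, of the Nera line and labelled as mixed sex, incubated at 37.5 °C and freed of yolk and amnion. They were collected at 15 Hamburger and Hamilton (HH) stages. The first were HH1, HH2, HH4, HH6 and HH8, the middle ones ran through HH9, HH11, HH14, HH16 and HH19, and the last were HH24, HH27, HH32, HH34 and HH38. HH1 is the blastoderm of the laid egg, gastrulation runs through the early stages, HH16 is an embryo with heart, somites and limb rudiments, and HH38 is a late embryo with formed organs. Each stage had 2 samples, described by the submitters as biological replicates, each made of RNA pooled over several embryos and hybridised to 1 Affymetrix Chicken Genome Array, which makes 30 arrays.

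Integrins are cell surface receptors built of 1 alpha and 1 beta chain, which bind extracellular matrix outside the cell and the actin cytoskeleton or intermediate filaments inside it. Laminins are trimers of an alpha, a beta and a gamma chain, and their assembly into a sheet is the first step in building a basement membrane. Which alpha chain a laminin carries sets which integrins bind it, and embryos are known to replace early laminin chains by tissue-specific ones as organs form.

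Values are MAS5 signals, in arbitrary units scaled to the same trimmed mean of 500 on every array. A stage signal is the geometric mean of its 2 arrays, and a change is a log2 difference between stages with limma's standard error (2 arrays for each stage, spread pooled over all 30). A gene was called when limma's adjusted p was below 0.05 and its change was at least 2-fold. Array background, the 95th percentile of 689 probe sets for other organisms, lay between 25.4 and 47.2. Where an array of the dimmer stage lay below background, the fold is given as "at least", with background in place of the lower signal. Signals of different probe sets were not compared with each other.

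The 2 arrays of a stage correlated at 0.94 to 0.958, and for 23 of 30 arrays the closest match was its own replicate. GSC, a gene of the organizer, had 1580 and 1730 at HH1, and ALB, the gene of serum albumin, had 22430 and 22010 at HH32, against 779.2 and 621 at HH27. At HH38 the ratio of actin 3' to 5' signal was higher, at 2.48 and 2.99, against 1.54 to 2.01 on the other arrays. They were also below background for the W-linked genes HINTW and HNRNPKL, which were above background on all arrays of the other stages, although HH38 carries the same mixed-sex label. Results at HH38 are therefore given with the change at HH34 beside them, and the part of these differences in the results was not tested. The samples are whole embryos, so fewer cells of a type and less RNA per cell cannot be told apart.

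Of the 30 genes, 29 passed the filter on low signals, and ITGB6, an integrin beta chain of epithelia, did not. ITGB6 was above background on 1 of 30 arrays, an HH32 array with 35.7. A difference between stages was found for 26 of the 29 (limma's F test, adjusted p below 0.05), and for 69% of all probe sets tested. LAMB3 (adjusted p = 0.178), ITGA7 (0.347) and ITGB1BP3 (0.252) did not pass. The highest stage mean was at HH38 for 10 genes, at HH1 for 5 and at HH2 for 3. The lowest was at HH32 for 6, at HH1 for 5 and at HH2 for 4.

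**Figure D1:**
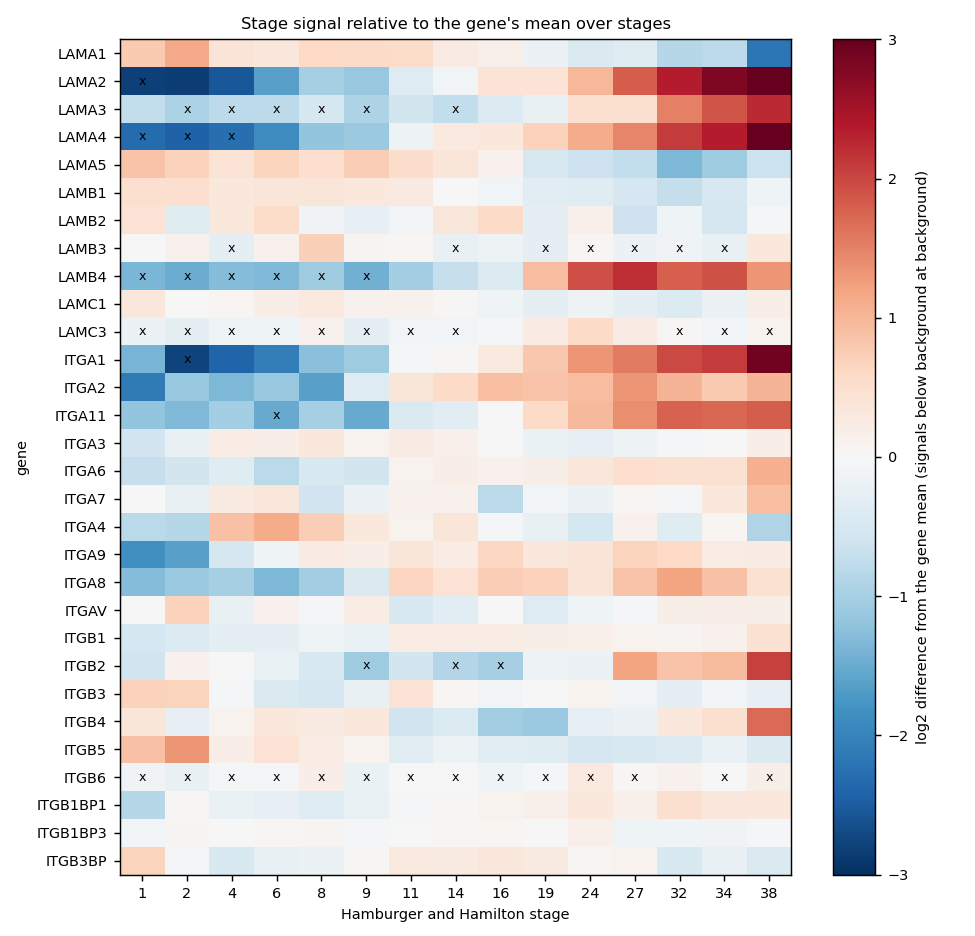
Heat map of the 30 genes (rows, grouped by role) over the 15 stages (columns, HH1 to HH38). Colour is the log2 difference of each stage signal from the gene's own mean, with signals raised to array background first the colour scale ending at 3 in each direction and a cross where both arrays lay below background; LAMA2, LAMA4 and ITGA1 turn from low to high along the course, whereas LAMA1, LAMA5 and LAMB1 are highest early.

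At HH16 against HH1, 7 of the 29 genes were higher and 2 lower, with 24.8% of all probe sets called in this comparison (15% higher and 9.79% lower). The higher ones were LAMA4, LAMA2, LAMB4, ITGA2, ITGA9, ITGA8 and ITGA1, and the lower ones ITGB4 and ITGB5. The median change was 0.18 over the 29 genes and 0.04 over all probe sets. At HH38 against HH16, 8 were higher and 1 lower, with 20.1% of all probe sets called (12.2% higher and 7.88% lower). These were ITGB2, LAMA2, LAMA3, ITGB4, LAMA4, ITGA1, ITGA11 and LAMB4 on the higher side and LAMA1 on the lower. The median change was 0.21, and 0.05 over all probe sets. At HH34 against HH16, a comparison added after the data were seen, 7 were higher and 2 lower, with 14.5% of all probe sets called (9.74% higher and 4.74% lower). ITGB4 was the 1 gene called in both main comparisons in opposite directions, as were 3.16% of all probe sets. The split of calls over all probe sets was 4439 higher and 2899 lower at HH16 against HH1 and 3616 higher and 2331 lower at HH38 against HH16. With quantile normalization these were 3923 and 3265, and 3006 and 3467. With 75th percentile scaling they were 3836 and 3733, and 3063 and 3304.

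**Figure D2:**
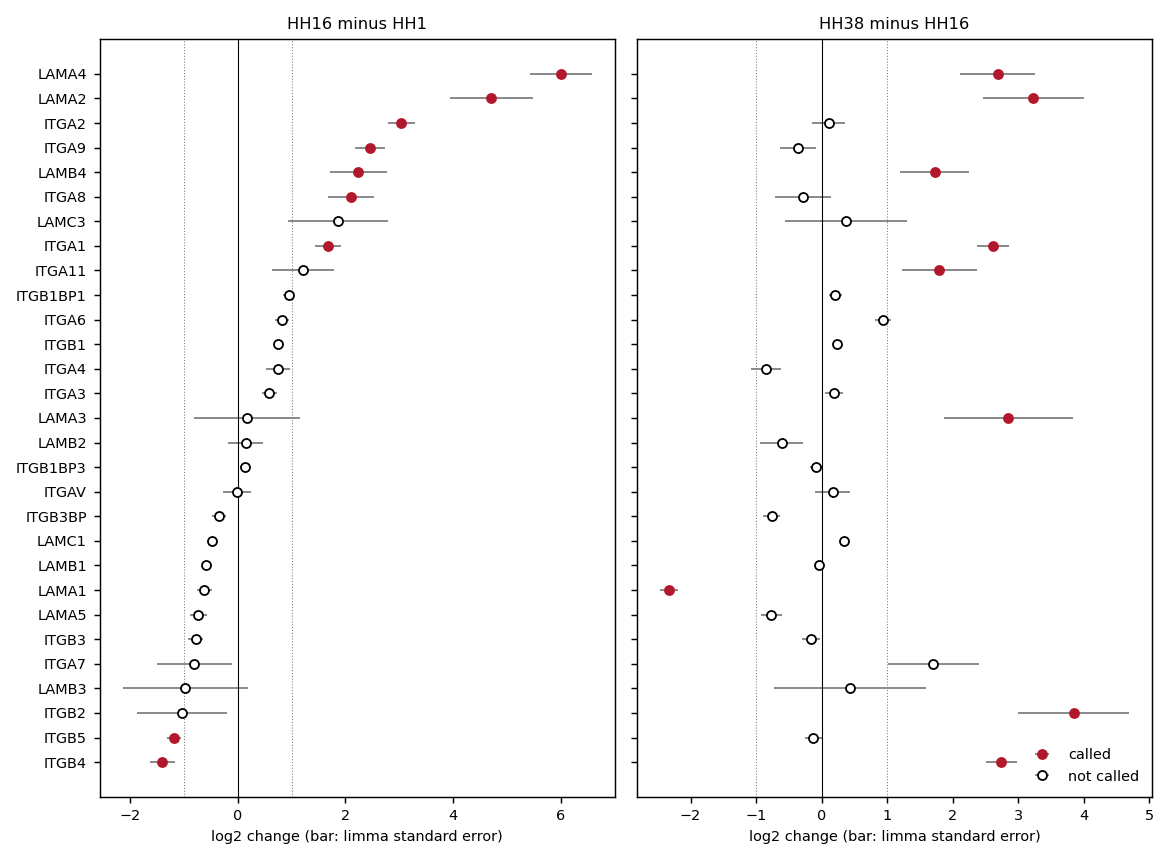
Log2 changes of the genes at HH16 against HH1 and at HH38 against HH16 (points, with standard errors as bars, n = 2 arrays per stage), with called genes as filled points and dotted lines at a 2-fold change. LAMA2, LAMA4, LAMB4 and ITGA1 are called higher in both comparisons, and ITGB4 is lower at HH16 and higher at HH38.

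The laminin alpha chains divided into chains with early and chains with late maxima. LAMA1, the alpha chain of the first embryonic basement membranes, had stage signals from HH1 to HH38 of 2439, 3150, 1865, 1799, 2149, 2131, 2102, 1683, 1589, 1268, 1053, 1110, 794, 832.5 and 316.4. Its arrays read 355.4 and 281.7 at HH38, 842.6 and 822.5 at HH34, against 1669 and 1513 at HH16, with no overlap between these stages. The change at HH16 against HH1 was -0.62 ± 0.13 (adjusted p = 0.000533), under 2-fold. LAMA1 fell by 2.33 ± 0.13 at HH38 against HH16 (adjusted p = 3.59e-12), and the HH34 change was -0.93 ± 0.13 (6.74e-06), short of 2-fold. The last step held most of this decline: at HH38 against HH34 LAMA1 fell by 1.40 ± 0.13 (1.82e-07), with 3.8% of all probe sets called at that step. With the mean of its 5 probe sets the last step was -0.99 (0.00996) and not called. The other 4 LAMA1 probe sets correlated with the chosen one at 0.73 to 0.89 over the 15 stages, and 3 of them were also called lower at HH38 against HH16. At HH16 against HH1, the one that correlated at 0.89 was called lower, with a change of -1.54 ± 0.25 (2.09e-05). The remaining ones were lower there but not called, all in a fit of all chicken probe sets.

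LAMA5, the alpha chain of many epithelial basement membranes, also had its highest signal at HH1. Its arrays read 1879 and 1565 at HH38, 1372 and 1218 at HH34, 1154 and 974 at HH32, 2577 and 3305 at HH16, and 4464 and 5232 at HH1. The change was -0.73 ± 0.16 at HH16 against HH1 (adjusted p = 0.000858) and -0.77 ± 0.16 at HH38 against HH16 (0.000593), neither reaching 2-fold. At HH34 against HH16 LAMA5 fell by 1.17 ± 0.16 (5.18e-06), and its HH38 arrays lay above those of HH34.

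LAMA2, the alpha chain of the basement membrane around muscle fibres and peripheral nerve, ran the other way from a start below background. It was below background on both HH1 arrays, at 4.96 and 23.54, and on 1 array each at HH2 and HH4, where the stage signals were 6.694 and 31.8. From HH6 on its stage signals were 69.39, 107.5, 96.98, 162.8, 201, 283.3, 283.3, 427.1, 748.9, 1093, 1498 and 2665. The HH38 arrays of 2704 and 2627 and the HH34 arrays of 1487 and 1510 did not overlap with the HH16 arrays of 242.1 and 331.4. LAMA2 rose at least 9.20-fold at HH16 against HH1 (adjusted p = 2.47e-05), by 3.23 ± 0.78 at HH38 against HH16 (0.00171) and by 2.40 ± 0.78 at HH34 against HH16 (0.0196). Of its 4 other, dimmer probe sets, 1 was also called higher at HH38 against HH16 (at least 3.20-fold) and none at HH16 against HH1, where limma's unadjusted p was 0.0908 or above.

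LAMA4, the alpha chain of vessel walls and mesenchyme, followed a like course. It was below background on both arrays of HH1, HH2 and HH4, where the stage signals were 2.987, 2.802 and 6.42 and the highest array read 19.02. From HH6 on its stage signals were 41.1, 66.95, 71.12, 137.8, 187.6, 191, 247, 328.4, 420.1, 650.1, 781.2 and 1229. LAMA4 rose at least 6.20-fold at HH16 against HH1 (adjusted p = 9.04e-09), by 2.69 ± 0.57 at HH38 against HH16 (0.000553) and by 2.03 ± 0.57 at HH34 against HH16 (0.00784). With the mean of its probe sets the HH38 change was 1.96 (0.0517) and no longer called. The stage means of LAMA4 and LAMA2 correlated at 0.98, and those of LAMA1 and LAMA2 at -0.88. These are descriptions over 15 stage means that share the arrays and the order of time.

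LAMA3, the alpha chain of the laminin that anchors the epidermis, was above background on 14 of 30 arrays. It was above background on 1 array each at HH1, HH11, HH16 and HH19, the highest of which read 67.88, and on both arrays of HH24 and of every later stage. Up to HH19 its stage signals were 31.91, 10.6, 3.228, 3.432, 2.748, 3.35, 13.39, 28.32, 36.06 and 25.68. From HH24 they were 76.64, 76.85, 156.3, 203.8 and 260.6. LAMA3 rose at least 6.36-fold at HH38 against HH16 (adjusted p = 0.0249), with 254.8 and 266.5 at HH38, against 25.12 and 51.75 at HH16. The call was lost without HH16 replicate 1 (0.165), HH38 replicate 1 (0.0869) or HH38 replicate 2 (0.0947) and with quantile normalization (0.0522), and the HH34 change of 2.50 ± 0.99 was not called (0.0576).

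Among the laminin beta chains, LAMB1, the beta chain of most early laminins, was brightest at the start. Its stage signals from HH1 to HH38 were 8959, 8956, 7931, 8121, 8131, 7922, 7627, 6283, 5997, 5128, 4913, 4489, 3857, 4558 and 5853. Its change at HH16 against HH1 was -0.58 ± 0.06 (adjusted p = 4.51e-08), under 2-fold, and its HH38 change against HH16 was -0.04 ± 0.06 (0.708). Between these ends it reached its minimum at HH32, with 3886 and 3829, below both arrays of every other stage. At HH38 against HH34 the change was 0.36 ± 0.06 (0.000293), and at HH34 against HH16 it was -0.40 ± 0.06 (1.87e-05). With the mean of its probe sets LAMB1 was called lower at HH16 against HH1 (7.83e-05).

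LAMC1, the gamma chain shared by most laminins, had stage means within a range of 0.74 on the log2 scale. Its stage signals from HH1 to HH38 were 10460, 8408, 8659, 9456, 10150, 9103, 9001, 8507, 7512, 6905, 7427, 6793, 6243, 7361 and 9528. The change was -0.48 ± 0.06 at HH16 against HH1 (adjusted p = 1.25e-06) and 0.34 ± 0.06 at HH38 against HH16 (0.000111), both under 2-fold. Like LAMB1 it was lowest at HH32, and at HH38 against HH34 its change was 0.37 ± 0.06 (0.000287). At HH34 against HH16 the change was -0.03 ± 0.06 (0.786). The stage means of LAMB1 and LAMC1 correlated at 0.86, those of LAMA5 and LAMB1 at 0.96, and those of LAMA1 and LAMC1 at 0.36.

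LAMB4, a beta chain whose gene neighbours LAMB1 in the chicken assembly GRCg7b, had a course unlike that of LAMB1. It was below background on all 12 arrays up to HH9, with stage signals of 12.7, 16.12, 15.63, 8.354, 19.68 and 15.62. From HH11 its stage signals were 39.33, 48.95, 60.1, 150.4, 302, 366.5, 275.5, 297.4 and 198.9. LAMB4 rose at least 1.95-fold at HH16 against HH1 (adjusted p = 0.00113) and by 1.73 ± 0.52 at HH38 against HH16 (0.0106). The HH38 call was lost without HH16 replicate 1 (0.1) or HH38 replicate 1 (0.0786) and with the mean of its probe sets (1.03, 0.0675), whereas the HH34 change of 2.31 ± 0.52 was called (0.00128). At HH16 the change was 0.96 (0.00259) once signals were raised to background, and 0.8 (0.153) with the mean of its probe sets. Its 2 other probe sets correlated with it at 0.22 and 0.21 over the stages. The stage means of LAMB4 and LAMB1 correlated at -0.95.

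LAMB2, the beta chain of neuromuscular synapses and the kidney filter, gave answers that differed between probe sets. The chosen one read 92.19 and 98.28 at HH38, 64.74 and 72.63 at HH34, against 164.9 and 127.2 at HH16. Its change was -0.61 ± 0.33 at HH38 (adjusted p = 0.159), and at HH34 it fell by 1.08 ± 0.33 (0.0136). The other probe set, in a fit of all chicken probe sets, was higher at HH38 against HH16 by 2.03 ± 0.68 (0.0245), and the courses of the 2 probe sets correlated at -0.33.

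LAMB3 and LAMC3 stayed near background. LAMB3, the beta chain that pairs with LAMA3 in the epidermis, was above background on 11 of 30 arrays, with its highest stage signal of 63.06 at HH8. Over the 15 stages it read 35.16, 42.24, 20.99, 36.28, 63.06, 40.78, 12.23, 15.77, 17.94, 6.603, 5.659, 13.17, 7.28, 14.13 and 24.27. At HH38 its arrays read 60.37 and 9.758, against 8.553 and 37.63 at HH16, and overlapped. LAMC3, a gamma chain, was above background on 4 of 30 arrays, 1 each at HH16, HH19, HH24 and HH27, and its highest array read 56.92 at HH24. Its signals over the 15 stages were 5.587, 7.729, 12.34, 4.708, 11.78, 5.915, 14.12, 10.34, 20.23, 34.76, 28.8, 26.03, 4.629, 24.07 and 26.26. Its stage effect passed with an adjusted p of 0.0484, on signals that were mostly below background.

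**Figure D3:**
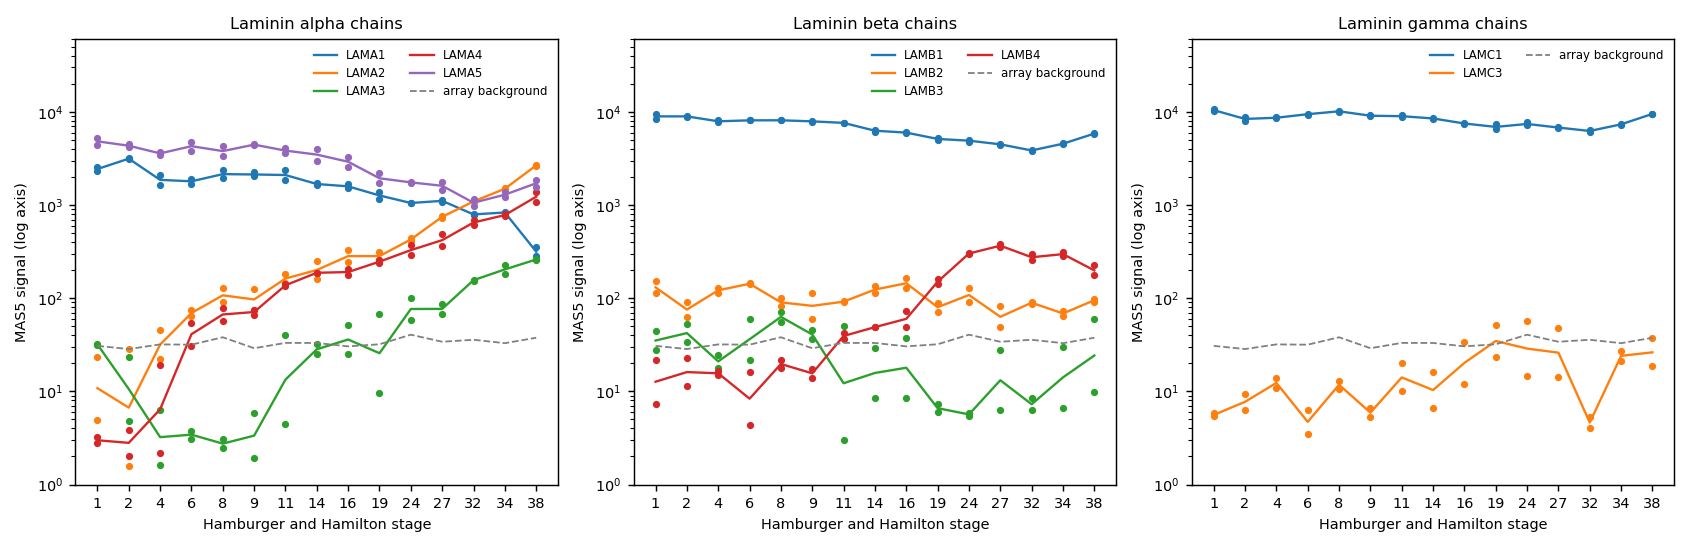
MAS5 signals of the 11 laminin genes (log axis) by stage, with the 2 arrays of a stage as points, the stage means as lines and array background as a dashed line; heights of different genes are not comparable. LAMA1 ends at 316.4 at HH38, while LAMA2 and LAMA4, below background at HH1, end at 2665 and 1229.

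The collagen-binding integrin alpha chains ITGA1, ITGA2 and ITGA11 were dim at HH1 and brighter late, at different times. ITGA1, a receptor of collagen IV and other collagens with ITGB1, had stage signals from HH1 to HH38 of 75.07, 21.27, 37.36, 46.31, 82.66, 93.13, 188.3, 202, 239.7, 343.2, 493.7, 580.3, 778.7, 846.8 and 1468. It first fell at least 2.64-fold at HH2 against HH1 (adjusted p = 5.3e-06; 10.8% of all probe sets were called at that step), with both HH2 arrays below background. ITGA1 then rose by 1.67 ± 0.24 at HH16 against HH1 (5.32e-06), by 2.61 ± 0.24 at HH38 against HH16 (9.07e-09) and by 1.82 ± 0.24 at HH34 against HH16 (2.99e-06). From HH6 on each stage mean was above the one before it. The HH38 arrays of 1465 and 1470 lay above the HH34 arrays of 861.8 and 832.1, with a change of 0.79 ± 0.24 (0.0335).

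ITGA2, another collagen receptor chain, had its increase before HH16. From HH1 to HH38 it had stage signals of 46.47, 91.97, 79.36, 91.81, 66.01, 154.4, 262.6, 303.7, 380.9, 370.5, 387.9, 505, 413, 349.3 and 410. ITGA2 rose by 3.04 ± 0.25 at HH16 against HH1 (adjusted p = 8.68e-10), with 390.4 and 371.7 at HH16, against 34.04 and 63.43 at HH1. Its change at HH38 against HH16 was 0.11 ± 0.25 (0.789) and at HH34 against HH16 -0.12 ± 0.25 (0.767).

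ITGA1 and ITGA2 are neighbours on chromosome Z in GRCg7b. Over 957 Z-linked probe sets the median change at HH38 against HH34 was 0.25, and it was -0.04 over 21238 probe sets of other chromosomes. At HH38 against HH16 these medians were 0.12 and -0.01, and at HH34 against HH16 -0.16 and -0.02. The part of this difference in the HH38 values of ITGA1 and ITGA2 was not tested.

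ITGA11, a receptor chain for fibrillar collagen in mesenchyme, had stage signals up to HH9 of 39.68, 36.26, 44.81, 15.31, 28.53 and 16.04, with arrays between 7.493 and 50.41. From HH11 they were 67.59, 72.66, 91.98, 135, 178.7, 239.2, 310.1, 301.2 and 320.3. It rose by 1.80 ± 0.58 at HH38 against HH16 (adjusted p = 0.0158), with 334.2 and 307 at HH38, against 109.3 and 77.38 at HH16, and by 1.71 ± 0.58 at HH34 (0.0257). The HH38 call was lost without HH16 replicate 2 (0.111), HH38 replicate 1 (0.0754) or HH38 replicate 2 (0.0559). At HH16 against HH1 the change was 1.21 ± 0.58 (0.0984), and it was called without HH9 replicate 1 (0.045) or replicate 2 (0.0468) and after signals were raised to background (0.00202). The stage means of ITGA11 and LAMB4 correlated at 0.95.

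None of the 3 laminin-binding alpha chains was called on its chosen probe set at HH16 against HH1, HH38 against HH16 or HH34 against HH16 in limma. Unadjusted p was below 0.05 for 2, 2 and 1 of them in these comparisons. ITGA6, the partner of ITGB4 in hemidesmosomes and of ITGB1 elsewhere, read 3681 and 3275 at HH38, 2375 and 2146 at HH34, 1700 and 1929 at HH16, and 868.6 and 1212 at HH1. Its changes were 0.82 ± 0.13 at HH16 against HH1 (adjusted p = 1.12e-05), 0.94 ± 0.13 at HH38 against HH16 (2.18e-06) and 0.32 ± 0.13 at HH34 against HH16 (0.0593). It passed 2-fold at HH16 without HH1 replicate 2 (1.06). At HH38 it did so without HH16 replicate 2 (1.03) or HH38 replicate 2 (1.02), with quantile normalization (1.01) and with the mean of its probe sets (1.15). A second, dimmer ITGA6 probe set was called higher at HH38 against HH16 (1.36 ± 0.28, 0.000553), in a fit of all chicken probe sets. At HH16 against HH1 this probe set changed by -0.21 ± 0.28 (0.657).

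ITGA3, a laminin receptor chain of epithelia, read 659.1 and 580.4 at HH16, against 373.4 and 451.9 at HH1. The arrays did not overlap, and the change of 0.59 ± 0.13 (adjusted p = 0.000946) stayed under 2-fold. ITGA7, a laminin receptor chain of muscle, read 134.2 and 220 at HH38, 130.3 and 99.47 at HH34, against 39.59 and 69.91 at HH16. Its change of 1.11 ± 0.70 at HH34 against HH16 was not called (adjusted p = 0.253). The HH38 change of 1.71 ± 0.70 against HH16 was also not called (0.0564). It was called without HH8 replicate 1 (0.00293) or replicate 2 (0.00327), of which replicate 1 read 8.868 and replicate 2 read 108, and without HH24 replicate 1 (0.0441) or replicate 2 (0.0434). It was also called with array weights (0.0148) and with signals raised to background (0.00438). A second ITGA7 probe set correlated with the chosen one at 0.19 over the stages. In a limma fit of all chicken probe sets it changed by 0.697 ± 0.955 at HH38 against HH16 (adjusted p = 0.666) and was not called.

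The skeletal muscle list, whose tissue LAMA2 and ITGA7 are known from, had 9 of 11 genes higher and 0 lower at HH38 against HH16. At HH34 against HH16 these counts were the same. Of all probe sets, 12.2% were higher and 7.88% lower at HH38, and 9.74% and 4.74% at HH34. The list's summed signal was 73890 to 74500 at HH38, 39990 to 41040 at HH34 and 4041 to 4521 at HH16. The part of muscle content in the LAMA2 and ITGA7 values was not tested.

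ITGA4 and ITGA9, which form a related pair of alpha chains binding fibronectin, VCAM1 and tenascin, rose at HH4. ITGA4, known from migrating mesoderm and blood cells, rose by 1.74 ± 0.23 at HH4 against HH2 (adjusted p = 5.39e-06; 8.09% of all probe sets were called at this step), with 2824 and 2146 at HH4, against 801.9 and 677.3 at HH2. Its maximum was at HH6, with 3089 and 2738. The arrays read 746.7 and 691.1 at HH38 and 1560 and 1256 at HH34, against 1300 and 1286 at HH16. The change at HH38 against HH16 was -0.85 ± 0.23 (0.00469), under 2-fold, though it was called with 75th percentile scaling (-1.01, 0.00109) and with the mean of its probe sets (-1.06, 0.00041). At HH34 against HH16 it was 0.11 ± 0.23 (0.767).

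ITGA9 read 401.5 and 455.9 at HH16, against 61.72 and 99.27 at HH1, a rise of 2.45 ± 0.28 (adjusted p = 1.3e-07). At HH4 against HH2 it rose by 1.14 ± 0.28 (0.00474), a call lost without HH2 replicate 2 (0.095) or HH4 replicate 1 (0.0797), with quantile normalization (0.98, 0.0138) and with the mean of its probe sets (0.0742). After HH16 its change was -0.35 ± 0.28 at HH38 (0.345) and -0.39 ± 0.28 at HH34 (0.331). Its other, dimmer probe set correlated with it at 0.24.

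The RGD-binding alpha chains, named for the peptide motif they recognise, were ITGA8 and ITGAV. ITGA8, the nephronectin receptor chain of kidney and other mesenchyme, was above background on 1 array each at HH1, HH2, HH4 and HH6 and on both arrays of every later stage. It rose at least 4.10-fold at HH16 against HH1 (adjusted p = 0.000284), with 120.6 and 167.1 at HH16, against 26.2 and 41.58 at HH1. A second ITGA8 probe set was also called (at least 3-fold), and the 2 correlated at 0.95. Its change was -0.28 ± 0.43 at HH38 against HH16 (0.657) and 0.14 ± 0.43 at HH34 (0.854). ITGAV, the common alpha chain of vitronectin receptors, was called in none of these comparisons, with unadjusted p of 0.441 and above in limma. Its stage signals lay between 580.3 at HH11 and 1295 at HH2, and its change at HH16 against HH1 was -0.01 ± 0.26 (0.98).

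ITGB1, the beta chain that most integrin alpha chains pair with, had stage means within a range of 0.99 on the log2 scale. It was lowest at HH1 and highest at HH38. Its stage signals from HH1 to HH38 were 6570, 7120, 7834, 7937, 8694, 8261, 11140, 11140, 11060, 10780, 10630, 10200, 10130, 10400 and 13060. The change was 0.75 ± 0.06 at HH16 against HH1 (adjusted p = 4e-10) and 0.24 ± 0.06 at HH38 against HH16 (0.00223), both under 2-fold, and -0.09 ± 0.06 at HH34 against HH16 (0.291). The steps with an adjusted p below 0.05 were 2, with 0.43 ± 0.06 at HH11 against HH9 (2.2e-05) and 0.33 ± 0.06 at HH38 against HH34 (0.000555). A second ITGB1 probe set correlated with it at 0.99.

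ITGB4, the beta chain of hemidesmosomes that pairs with ITGA6, was lowest in mid-course. Stage by stage from HH1 it read 269.9, 176.3, 227.1, 259.7, 255.3, 260.9, 138.9, 157, 102.2, 96.72, 176.6, 184.7, 262.9, 291.7 and 685.5. ITGB4 fell by 1.40 ± 0.23 at HH16 against HH1 (adjusted p = 3.21e-05). With the mean of those of its 4 probe sets that passed the filter, this change was -0.78 (0.0163) and not called. The chosen probe set rose by 2.75 ± 0.23 at HH38 against HH16 (2.24e-09) and by 1.51 ± 0.23 at HH34 against HH16 (2.03e-05). Another probe set that passed the filter was called in neither main comparison, in a fit of all chicken probe sets. It changed by -0.15 ± 0.50 at HH16 against HH1 (0.875) and by 1.17 ± 0.50 at HH38 against HH16 (0.0859). Of the rise after HH16, 1.23 ± 0.23 came at HH38 against HH34 (0.000966), with 651.1 and 721.7 at HH38, against 293.8 and 289.6 at HH34. With the mean of its probe sets this step was 0.96 (0.0129) and not called. The stage means of ITGB4 correlated with those of ITGA6 at 0.16 and with those of LAMA3 at 0.21.

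The epidermis and hemidesmosome list had 9 of 13 genes higher and 0 lower at HH38 against HH16, beside 12.2% and 7.88% of all probe sets. At HH34 against HH16 it had 3 higher and 1 lower, beside 9.74% and 4.74%. Its summed signal was 27060 to 27730 at HH38, 8063 to 8407 at HH34 and 6549 to 6647 at HH16. KRT6A, a keratin of this list, read 1950 and 2086 at HH38 and was below background at HH16 and HH34. The median change of the list was -0.02 at HH34 against HH16, where its summed signal was higher and ITGB4 rose by 1.51. Earlier, the list's summed signal was 4431 to 4640 at HH1, 10520 to 11280 at HH9 and 6549 to 6647 at HH16. ITGB4 read 269.9, 260.9 and 102.2 at these stages. The part of epidermis content in the values of ITGB4 and LAMA3 was not tested at any stage.

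ITGB2, the beta chain of leukocyte integrins, was below background on both arrays of HH9, HH14 and HH16. Its stage signals from HH1 to HH38 were 35.71, 67.04, 60.63, 53.24, 22.61, 7.948, 16.93, 2.413, 17.45, 55.08, 51.99, 138.1, 109.8, 117.6 and 251.1. ITGB2 rose at least 8.25-fold at HH38 against HH16 (adjusted p = 0.000738), with 227 and 277.8 at HH38, against 12.21 and 24.93 at HH16. At HH34 it rose at least 3.86-fold against HH16 (0.0142). The leukocyte marker list, which does not hold ITGB2, had 8 of 12 genes higher and 0 lower at HH38 against HH16, with a summed signal of 13240 to 13340 at HH38 and 1699 to 1768 at HH16. Of the 12, 6 were higher and 1 lower at HH34 against HH16, with 6400 to 6415 at HH34. Over all probe sets, 12.2% were higher and 7.88% lower at HH38 against HH16, and 9.74% and 4.74% at HH34 against HH16. The part of leukocyte content in the ITGB2 values was not tested.

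ITGB5 and ITGB3, beta chains that pair with ITGAV to bind vitronectin, were brightest before HH4. ITGB5 fell by 1.18 ± 0.13 at HH16 against HH1 (adjusted p = 7.27e-08), with 2451 and 2511 at HH16, against 5529 and 5739 at HH1. Its change was 0.45 ± 0.13 at HH2 against HH1 (0.0105) and -0.42 ± 0.13 at HH11 against HH9 (0.0341), both under 2-fold. At HH4 against HH2 it fell by 1.13 ± 0.13 (6.78e-07), with 3451 and 3581 at HH4, against 7338 and 8087 at HH2. After HH16 its changes were -0.12 ± 0.13 at HH38 (0.496) and 0.11 ± 0.13 at HH34 (0.589). The change of ITGB3 at HH16 against HH1 was -0.78 ± 0.14 (5.07e-05), under 2-fold, with 614.4 and 691.3 at HH16, against 1152 and 1084 at HH1. Its 2 other probe sets were called lower in this comparison, 1 by -2.44 ± 0.40 (2.51e-05) and 1 at least 10-fold (0.000475), in a fit of all chicken probe sets.

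**Figure D4:**
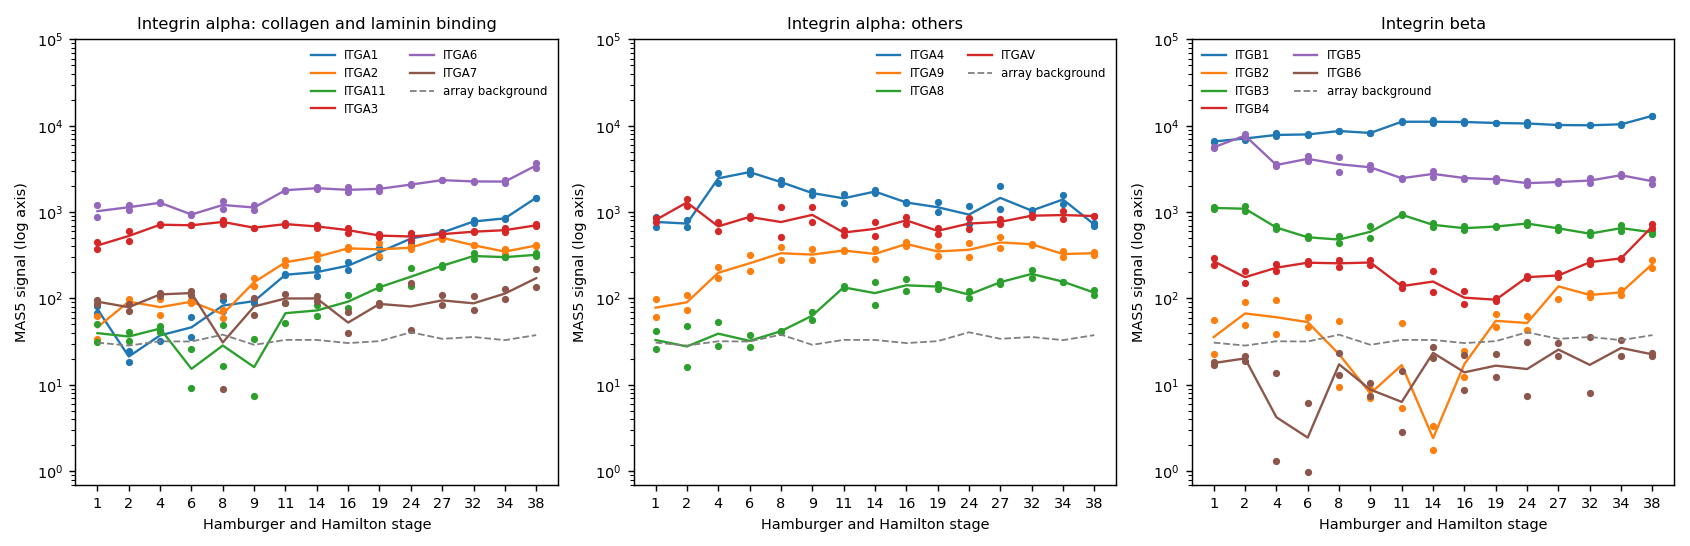
MAS5 signals of the integrin subunit genes (log axis) by stage, with the 2 arrays of a stage as points, the stage means as lines and array background as a dashed line; heights of different genes are not comparable. ITGA1 climbs from HH6 on to 1468 at HH38, ITGB4 dips to 96.72 at HH19, and ITGB6 lies below background on 29 of 30 arrays.

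On their chosen probe sets, the 3 genes named after an integrin were called in none of the main comparisons by limma. Unadjusted p was below 0.05 for 2 of them at HH16 against HH1 and for 2 at HH38 against HH16. ITGB1BP1, which in mammals binds the ITGB1 tail, had a change of 0.95 ± 0.10 at HH16 against HH1 (adjusted p = 4.84e-08), with 920.9 and 988.8 at HH16, against 477.7 and 511.1 at HH1. It reached 2-fold without HH16 replicate 1 (1.00). Most of this difference was present at HH2, where the change against HH1 was 0.88 ± 0.10 (6.4e-07). Its other probe sets, in a limma fit of all chicken probe sets, differed from it and from each other. At HH16 against HH1 they changed by -0.283 ± 0.124 (0.0879), -0.065 ± 0.107 (0.725) and 0.971 ± 0.249 (0.00327). The last of these, a dimmer one, was called higher at HH38 against HH16 (1.364 ± 0.249, 0.000122). The size and the sign of the fitted ITGB1BP1 change at HH16 against HH1 thus depend on the probe set. ITGB3BP, a centromere protein, had 809.4 and 740.5 at HH38, against 1247 and 1379 at HH16, a change of -0.76 ± 0.13 (5.65e-05), and -0.57 ± 0.13 at HH34 (0.00164). ITGB1BP3, in mammals a nicotinamide riboside kinase, had stage signals of 26280 to 32200. Its other probe set was called higher at HH16 against HH1 (1.15 ± 0.35, 0.0116, in a fit of all chicken probe sets), and which of the 2 measures this gene is not settled.

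Between neighbouring stages there were 11 calls over the 14 steps, 8 higher and 3 lower. Only ITGA1 had more than 1 of these calls, with 1 lower and 1 higher. Of all probe sets, 23.1% were called at 1 or more steps, a share that counts probe sets and not calls. Beside the steps already described, LAMA2 rose at HH4 against HH2 (at least 1.06-fold, adjusted p = 0.0448), though its arrays of 22.43 and 45.09 at HH4 overlapped with 28.39 and 1.578 at HH2. This call was lost in 29 of the alternatives, among them without HH2 replicate 2 (0.914), without HH4 replicate 1 (0.0619) or replicate 2 (0.276) and with signals raised to background (0.529). LAMA4 rose at HH6 against HH4 (at least 1.29-fold, 0.0306; 0.324% of all probe sets called), and lost the call without HH4 replicate 1 (0.391) or HH6 replicate 2 (0.349), with signals raised to background (0.84) and in 2 further alternatives. ITGA2 rose at HH9 against HH8 by 1.23 ± 0.25 (0.0343; 0.176% called), and lost the call without HH8 replicate 1 (0.136) or HH9 replicate 2 (0.227) and in 8 further alternatives.

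At HH11 against HH9, where 4.76% of all probe sets were called, ITGA1 rose by 1.02 ± 0.24 (adjusted p = 0.00707) and ITGA11 at least 2.14-fold (0.0194). The ITGA1 call was lost without HH9 replicate 1 (0.0665) or HH11 replicate 2 (0.0522) and with quantile normalization (0.98, 0.00765), and the ITGA11 call without HH9 replicate 1 (0.403) or HH11 replicate 2 (0.18) and with the mean of its probe sets (0.63, 0.414). Without HH2 replicate 1, the change at HH2 against HH1 was 1.07 for ITGA2 and -2.77 for LAMA2. For LAMA2 the HH1 arrays and the remaining HH2 array all lay below background. At HH4 against HH2 the change was then 1.01 for ITGA1 and -1.06 for ITGAV. At 8 steps limma called none of the genes. These were HH8 and then each step from HH14 to HH34, with 2 to 8 genes at an unadjusted p below 0.05. Of all probe sets, 0.189% were called at the HH8 step. The steps to HH14 and HH16 had 0.463% and 0.0709%. Those to HH19, HH24 and HH27 had 0.872%, 0.757% and 0.922%, and those to HH32 and HH34 had 1.02% and 0.0608%.

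Of 28 other basement membrane components and integrin ligands tested, 11 were higher and 2 lower at HH16 against HH1, beside 15% and 9.79% of all probe sets, with a median change of 0.99. The 3 genes with the largest fitted changes were VCAM1, an ITGA4 ligand (at least 10.1-fold, adjusted p = 2.32e-12), HSPG2, the proteoglycan perlecan (at least 7.61-fold, 3.05e-09), and FREM1 (2.40 ± 0.33, 2.07e-06), all higher. At HH38 against HH16, 12 were higher and 3 lower, beside 12.2% and 7.88% of all probe sets, with a median change of 1.00. At HH34 8 were higher and 2 lower, beside 9.74% and 4.74%. The 3 genes with the largest fitted changes at HH38 were VTN, the vitronectin gene (2.83 ± 0.12, 5.52e-14), COL15A1 (at least 9.05-fold, 0.00439) and the collagen IV chain COL4A4 (at least 2.80-fold, 1.15e-05), all higher. COL15A1 and COL4A4 were below background at HH16, so their rank among these genes is not settled. At HH34 COL15A1 was not called (0.0507).

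VTN read 4269 at HH38 and 3410 at HH34, against 600.4 at HH16, whereas of its receptor chains ITGAV, ITGB3 and ITGB5 none was called in either comparison, with unadjusted p of 0.251 and above in limma.

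Of 31 genes of the integrin adhesion complex, 7 were higher and 3 lower at HH16 against HH1, beside 15% and 9.79% of all probe sets, with a median change of 0.23. The 3 genes with the largest fitted changes were the adaptor TNS1 (2.06 ± 0.14, adjusted p = 1.72e-11), ILK, a scaffold on integrin beta tails (1.60 ± 0.11, 4.17e-11), and the actin cross-linker ACTN4 (at least 3.28-fold, 0.000443), all higher. ACTN4 was below background at HH1, so its rank is not settled. At HH38 against HH16, 3 were higher and 0 lower, beside 12.2% and 7.88% of all probe sets, with a median change of 0.32. These were TNS1 (1.28 ± 0.14, 5.79e-08), and the tetraspanins CD9 (1.20 ± 0.18, 9.56e-06) and CD81 (1.06 ± 0.10, 2.17e-08). At HH34 against HH16, 1 of the 31 was higher and 1 lower, beside 9.74% and 4.74% of all probe sets. TNS1 was the higher one (1.10 ± 0.14) and CD9 the lower (-1.02 ± 0.18), so that CD9 differed in direction between the late stages. CD81 was not called at HH34.

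Endothelium markers were set beside LAMA4, which vessels express. All 12 rose at HH16 against HH1, beside 15% of all probe sets. Their summed signal was 6537 to 7876 at HH16 and 414.1 to 428.3 at HH1. At HH38 against HH16, where LAMA4 rose by 2.69, 2 of the 12 were higher and 1 lower, beside 12.2% and 7.88% of all probe sets. The summed signal was 9534 to 9792 at HH38. Of the same markers, 1 was higher and 2 lower at HH34 against HH16, beside 9.74% and 4.74%, with 8723 to 9014 at HH34. The part of vessel content in the LAMA4 values was not tested.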

How the data were processed

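Gene expression was measured in 30 samples, 2 for each of 15 stages, on 1-colour Affymetrix arrays of 38535 probe sets. The deposited intensity values are MAS5 signals, scaled by the authors to a trimmed mean of 500 per the labels; its other settings are not stated in those labels. Signals were taken to log2 and fitted with limma 3.58.1 (lmFit, eBayes with a variance trend, R 4.3.3), with 15 stage means. Chicken probe sets at or above the 40th percentile of an array on at least 2 arrays were kept (29600), and p-values were adjusted by Benjamini-Hochberg over all of them within each comparison. Gene symbols came from the platform annotation, and 30 of 30 matched RefSeq gene IDs. The number of arrays limits the precision, and p-values measure the spread between these pools. The genes and lists were chosen with earlier results of these data known. Each of the 30 genes was named, with stage values for LAMA1, LAMB1, LAMC1, ITGB1 and the 12 genes of largest range, and the 3 largest changes of each partner list. Replicate numbers did not pair samples: over 105 pairs of stages their deviations correlated at -0.03 to 0.04. The alternatives were 2 other normalizations, no filter, no variance trend, array weights, a replicate block and averaging those probe sets of a gene that passed the filter. Further ones were signals raised to background, no fold threshold, leaving out each array, and HH34 in place of HH38. Only the last was chosen after seeing the data.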

Additional observations from a re-analysis of the deposited data

How the results depend on the processing

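There were 2233 single-gene changes in the main comparisons recomputed under alternatives. Of these, 2195 kept their side of the threshold, 16 lost a call and 22 gained one. Of the changes called in either fit, 0 reversed. The 2195 include sign changes of uncalled genes, as for ITGA4, with -0.848 at HH38 and 0.115 at HH34 against HH16. Leaving out an array of a stage not compared, no filter, no variance trend, array weights and the replicate block left the fitted changes as they were. Under these only the p-value could move a call, so the 2195 are no measure of stable direction. The count lower at HH38 against HH16 (1 as reported) was 2 with 75th percentile scaling, 2 after averaging the probe sets of each gene and 2 with HH34 in place of HH38. The higher calls over the steps (8 as reported) were 5 without a variance trend and 5 with the mean of probe sets. With no fold threshold there were 20 calls at HH16 against HH1 (12 higher, 8 lower) and 15 at HH38 against HH16 (4 lower). Over the steps there were 42 calls (24 higher, 18 lower). Of all probe sets, 43.1% and 39.1% were then called in the main comparisons. The share called at 1 or more steps was 48.1%, which counts probe sets and not calls. Leaving out 1 array gave 23 to 26 genes with a stage effect, 9 to 10 calls at HH16 against HH1 (7 to 8 higher, 2 to 2 lower), 6 to 10 at HH38 against HH16 (5 to 9 higher, 1 to 1 lower) and 9 to 15 over the steps (5 to 10 higher, 3 to 5 lower). The fewest higher calls at HH38 came without HH38 replicate 1 (5), the fewest higher steps without HH11 replicate 2 (5) and the most lower steps without HH2 replicate 1 (5). With the replicate block there were 9 and 9 calls in the main comparisons, 10 over the steps (7 higher, 3 lower) and 25 stage effects; of the main-comparison calls it changed none. With quantile normalization the median change over all probe sets came to -0.05 at HH16 and -0.15 at HH38, and with 75th percentile scaling -0.12 and -0.12, against 0.04 and 0.05 as reported. The cause of these shifts was not tested. Signal over background limits ITGB6 and LAMC3 at nearly all stages and LAMB3 at most stages. It limits LAMA2, LAMA4 and LAMB4 at early stages and LAMA3 up to HH19. For ITGB2 the limit lies mainly from HH8 to HH16, and HH16 is the reference of its late rise.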
